A study of Mus musculus with 2 samples.

Results

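The 10 genes described here, Hspa5, Herpud1, Dnajb9, Xbp1, Atf4, Ddit3, Trib3, Asns, Chac1 and Sesn2, belong to the endoplasmic reticulum (ER) stress and amino acid responses, and were taken by symbol from the 32285 genes counted by scRNA-seq in RM-1 tumors. RM-1, a mouse prostate cancer (PCa) line used by the study as a model of enzalutamide (ENZ) resistance, was injected into the prostates of C57BL/6 mice, and the labels give the genotype of both samples as WT. The control sample came from 1 mouse given vehicle, and the ENZ sample from 1 mouse given ENZ, an androgen receptor antagonist. Each tumor gave 1 library of unique molecular identifiers (UMIs), 170830346 UMIs for control and 162030149 for ENZ, and immune cells were enriched during sorting. Treatment, mouse, tumor and library preparation therefore cannot be told apart, and with no replicates no test between conditions is given.

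The ER folds secreted and membrane proteins, and its unfolded protein response has 3 sensors: IRE1, which splices Xbp1 mRNA, ATF6, and the kinase PERK. PERK and GCN2, a kinase that senses uncharged tRNA, phosphorylate the same translation factor, eIF2, which lowers protein synthesis but favors translation of Atf4 mRNA. ATF4 then drives genes of amino acid synthesis and transport and, under lasting stress, Ddit3. Because the assay counts mRNA at its 3′ end, neither the splicing of Xbp1 nor the translation of Atf4 was measured.

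Barcodes with at least 1000 UMIs and at most 20% mitochondrial UMIs were kept, 12253 for control and 10271 for ENZ. Of these, 4006 and 4469 were taken as cancer cells, with at most 1 UMI of the leukocyte gene Ptprc and at least 5 of Cacna2d1, Rbfox2, Kif21a and Rhox5 together. The cancer cells carried the keratins Krt8 (434 CPM in control and 506 CPM in ENZ cells) and Krt18 (354 and 357 CPM), whereas the epithelial surface gene Epcam was nearly absent (3.07 and 2.89 CPM). CPM here is the count of a gene per 1000000 UMIs, from the pooled UMIs of all cells of a class in a library. Immune cells were gated by their own markers (2790 and 2169 barcodes), and 11 immune classes had at least 20 cells in each library. Barcodes that passed no gate (5425 and 3621) were mostly shallow, with medians of 2881 and 2947 UMIs against 21024.5 and 22115 in cancer cells, and 27 and 9 barcodes that passed several gates were left out. The libraries shared 39 barcodes, of which 8 fell in the same class.

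The promoters show where letters known from these pathways lie near the start sites of the members. Sequences from RefSeq (GRCm38.p6), from 250 bases before to 50 after each start, were found for all 10 members and searched on both strands among 32851 promoters. The ER stress response element (ERSE) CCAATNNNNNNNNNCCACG occurred in 0.119% of all promoters and in Hspa5 alone among the members, and ERSE-II, which reads ATTGG, any base and then CCACG, in 0.0365% of promoters and in Herpud1. The amino acid response letters TGATGNAA, known as the C/EBP-ATF response element, occurred in 3.97% of promoters and in Herpud1, Trib3, Asns and Chac1, that is in 4 of 10 members. A match to the UPRE-like letters TGACGTGG, in 0.676% of promoters, was found in no member. ERSE, ERSE-II and the UPRE-like letters share CCACG, read on one strand or the other, so these searches are not independent. The matches follow 5′ to 3′ along the gene, with the matched letters in capitals, and are shown because they are the letters of both responses that the members' promoters hold, with those of both in Herpud1. A match is a description of the sequence, and the binding of any factor was not measured.
Hspa5 ERSE, chr2:34771995-34772073, plus strand: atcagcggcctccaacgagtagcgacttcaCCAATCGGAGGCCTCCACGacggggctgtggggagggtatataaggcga
Herpud1 ERSE-II, chr8:94386347-94386417, plus strand: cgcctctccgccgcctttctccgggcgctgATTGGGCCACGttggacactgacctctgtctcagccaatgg
Herpud1 TGATGNAA on the other strand, chr8:94386287-94386354, plus strand: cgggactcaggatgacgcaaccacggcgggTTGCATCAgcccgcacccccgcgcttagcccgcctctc
Asns TGATGNAA, chr6:7693210-7693262, minus strand: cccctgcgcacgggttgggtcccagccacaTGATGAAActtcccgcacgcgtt
Chac1 TGATGNAA on the other strand, chr2:119351019-119351086, plus strand: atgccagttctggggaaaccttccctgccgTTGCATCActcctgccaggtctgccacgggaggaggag
Trib3 TGATGNAA on the other strand, chr2:152344028-152344057, minus strand: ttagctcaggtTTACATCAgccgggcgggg

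Relative to the RefSeq start sites, the matches in Hspa5, Herpud1, Asns and Chac1 lay before the start and that in Trib3 after it. Relative to the outermost starts of the GENCODE positions given for each gene, those in Hspa5 and Asns lay inside the gene and that in Trib3 before it, with Herpud1 and Chac1 as before. Promoters of the transcription factor genes Xbp1, Atf4 and Ddit3, and of Dnajb9 and Sesn2, held none of these letters in the same window.

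In cancer cells the response did not move as a block between libraries. Of the 10 members, 9 had at least 10 CPM in either library and 30 UMIs in both together, and among these 1, Sesn2, was higher and 1, Ddit3, was lower in ENZ cancer cells. A gene was called higher or lower when the ratio of ENZ to control was at least 1.3 in either direction and its 95% interval, which covers counting error only, lay beyond 1. Among all 8767 genes tested in cancer cells, 2.91% were called higher and 3.13% lower. The median log2 ratio was -0.06 over the 9 members and 0.04 over all genes tested, and 5 of the 9 ratios were below 1.

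**Figure D1:**
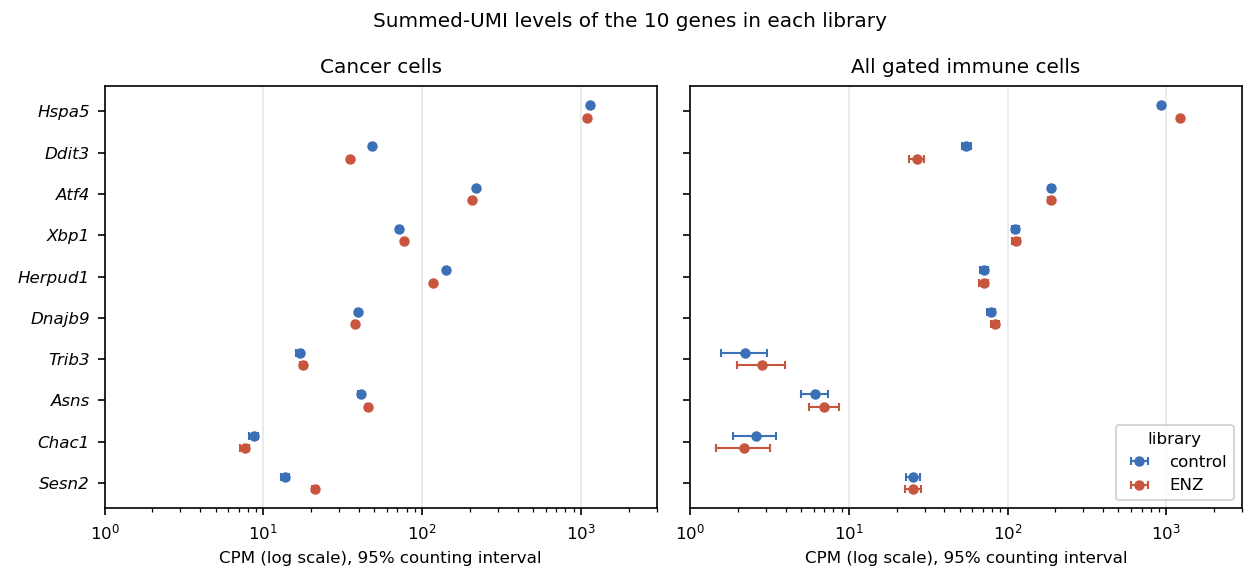
CPM of the 10 genes (log axis) in cancer cells (left) and in all gated immune cells (right) of the control (blue) and ENZ (red) libraries, with 95% counting intervals as bars. Points of the libraries nearly coincide for most genes, whereas Ddit3 was lower in the ENZ library in both panels (48.7 and 35.1 CPM in cancer cells, 55.1 and 26.9 in immune cells) and Trib3, Asns and Chac1 lay further left in immune cells.

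The ER chaperone branch differed little in cancer cells. Hspa5 (ENSMUSG00000026864, chr2:34771970-34777547 in GENCODE M21 on GRCm38, plus strand), which encodes BiP, the chaperone that binds unfolded proteins in the ER lumen, had 1142 CPM without ENZ and 1089 CPM with ENZ in cancer cells. Its ratio of 0.953 (95% interval 0.946 to 0.961) lay below 1 but far from the 1.3-fold limit. Herpud1 (ENSMUSG00000031770, chr8:94386438-94395377, plus strand), an ER membrane protein of ER-associated degradation, had 142 CPM and 118 CPM, a ratio of 0.831 (0.812 to 0.851) that also missed the limit. Dnajb9 (ENSMUSG00000014905, chr12:44205559-44210326, minus strand), a co-chaperone of BiP, had 39.5 and 37.9 CPM, and its interval began at 0.920 and just reached past 1. Of this branch, then, no member was called, and Herpud1 lay furthest from 1. Other genes overlap Herpud1 (Gm15890) and Dnajb9 (Mir5627) on the opposite strand.

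The transcription factors went different ways in cancer cells. Xbp1 (ENSMUSG00000020484, chr11:5520659-5525893, plus strand), the factor activated by splicing, had 71.5 CPM and, with ENZ, 77.2 CPM, a ratio of 1.08 (1.05 to 1.11). Atf4 (ENSMUSG00000042406, chr15:80255184-80257541, plus strand), the factor of the eIF2 branch, had 217 and 205 CPM, a ratio of 0.944 (0.926 to 0.961). Neither was called. Ddit3 (ENSMUSG00000025408, chr10:127290774-127296288, plus strand), which encodes CHOP, a factor linked to cell death under lasting ER stress, had 48.7 CPM (4938 UMIs) without ENZ and 35.1 CPM (4028 UMIs) with ENZ. Its ratio was 0.721 (0.692 to 0.752), and the intervals of the libraries did not overlap. A further gene identifier with the symbol Ddit3, which overlaps it, held 0 UMIs in both libraries, and Mars and Gm4189 overlap Ddit3 on the opposite strand.

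Among targets of the amino acid branch in cancer cells, Sesn2 alone was called. Trib3 (ENSMUSG00000032715, chr2:152337422-152344032, minus strand), a pseudokinase induced by ATF4 and CHOP, had 17.0 and 17.8 CPM, with an interval of the ratio from 0.982 to 1.12. Asns (ENSMUSG00000029752, chr6:7675169-7693254, minus strand), asparagine synthetase, had 40.9 and 45.4 CPM, a ratio of 1.11 (1.06 to 1.16). Chac1 (ENSMUSG00000027313, chr2:119351229-119354381, plus strand), an enzyme that degrades glutathione, had 8.71 and 7.66 CPM, a ratio of 0.879 with an interval that ended at 0.967, and stayed under the 10 CPM limit in both libraries. Trib3 and Asns were not called, and Chac1 was not compared for a call. Sesn2 (ENSMUSG00000028893, chr4:132492032-132510501, minus strand), a stress-induced leucine sensor that restrains the growth kinase mTORC1, had 13.7 CPM (1387 UMIs) without ENZ and 21.2 CPM (2427 UMIs) with ENZ. The ratio of 1.55 (1.45 to 1.65) was the highest of the members in these cells, and Gm12981 overlaps the gene on the same strand.

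Some other measures differed between the libraries in the same cancer cells. Immediate early and heat shock genes, which respond to handling as well as to stress, summed to 7777 CPM in control and to 5676 CPM in ENZ cancer cells, and 9 of 12 were called lower, among them Hspa1a (ratio 0.534) and Fos (0.537). The 6 genes whose reads can come from ribosomal RNA, led by Gm42418, summed to 14819 and 35848 CPM, and 4 of the 6 were called higher. Median mitochondrial shares were alike (3.07% and 2.99%). All 6 neutrophil markers were detected in cancer cells, summing to 93.1 CPM for control and 32.3 CPM for ENZ, and their most abundant gene, S100a9, had 50.1 and 14.9 CPM there against 42131 and 35135 CPM in neutrophils. Apart from the subsets that follow, the part of these differences in the values of Ddit3 and Sesn2 was not tested.

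Ddit3 and Sesn2 kept their directions within subsets of cancer cells. Dividing cells (at least 3 UMIs of Mki67, Top2a and Cenpf together) made up 41.5% of control and 37.5% of ENZ cancer cells, and the ratio of Ddit3 was 0.728 in dividing and 0.704 in other cells. For Sesn2 it was 1.57 and 1.54. Cancer cells of both libraries were also divided into tertiles by their share of immediate early and heat shock UMIs, a choice made after seeing the data. The highest tertile held 47.9% of control but 20.3% of ENZ cancer cells. The ratio of Ddit3, 0.721 over all cancer cells, was 0.748 in the lowest, 0.778 in the middle and 0.823 in the highest tertile. It was thus nearer to 1 in each tertile, and only the lowest passed the 1.3-fold limit. That of Sesn2, 1.55 over all cancer cells, was 1.65, 1.43 and 1.43. For Hspa5 the ratio was above 1 in each tertile (1.10, 1.06 and 1.01) although it was 0.953 over all cancer cells. In both libraries the level of Hspa5 was higher where that share was higher, from 853 to 1333 CPM in control and from 942 to 1344 CPM in ENZ cells. Herpud1 went from 107 to 158 CPM and from 103 to 135 CPM over the same tertiles, and its ratio was nearer to 1 in the lowest tertile (0.962) than over all cells.

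**Figure D2:**
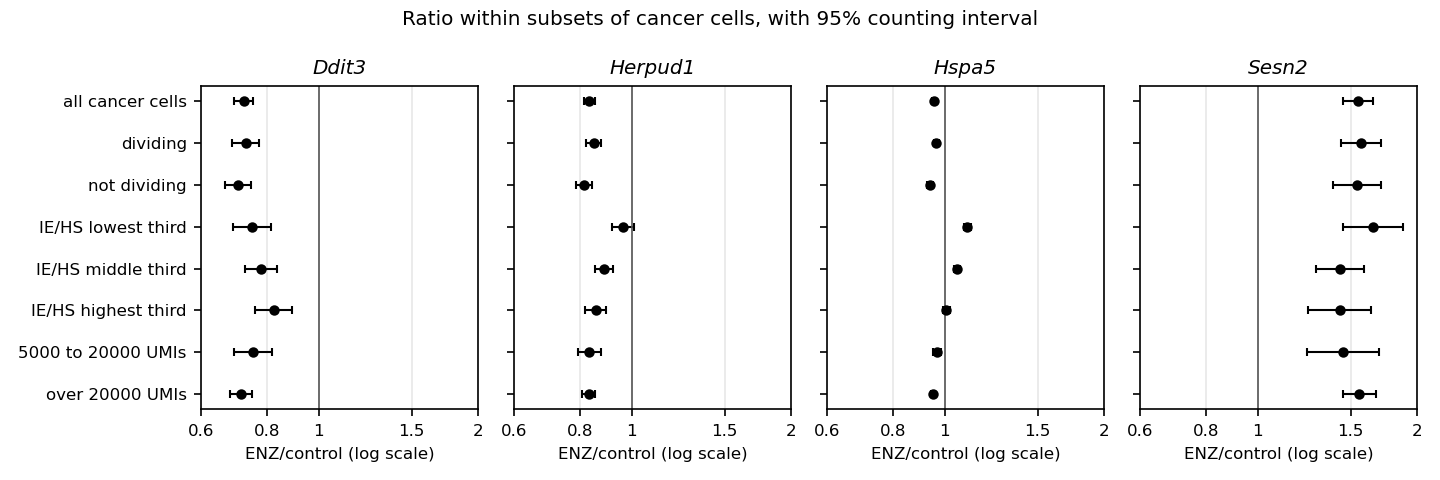
Ratio of ENZ to control (log axis) for 4 genes in all cancer cells and in subsets by division, by tertiles of the share of immediate early and heat shock (IE/HS) UMIs and by UMIs per cell, with 95% counting intervals. Ddit3 stayed left of 1 and Sesn2 right of 1 in every subset drawn, whereas Hspa5 lay left of 1 over all cells and right of 1 in each IE/HS tertile.

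Levels of Asns, Trib3 and Chac1 were above those of other cancer cells in dividing cells, without a test. Asns had 50.9 CPM in dividing against 28.2 CPM in other cells of the control library, and 58.0 against 31.9 CPM in the ENZ library. Trib3 had 21.0 against 11.8 CPM in the control and 21.9 against 13.3 CPM in the ENZ library, and Chac1 11.8 against 4.76 CPM and 10.4 against 4.70 CPM. Sesn2 differed less, with 14.6 against 12.5 CPM in the control and 23.0 against 19.2 CPM with ENZ. Cells that were not dividing differed among themselves by their share of Krt8 and Krt18. Asns had 11.9 and 13.7 CPM in the lowest tertile of that share and 47.9 and 45.3 CPM in the highest. The highest tertile was near the level of dividing cells in the control (50.9 CPM) but below it in the ENZ library (58.0 CPM). Trib3 had 7.13 and 7.62 CPM in the lowest and 16.7 and 16.9 CPM in the highest of these tertiles. The order was the other way for Dnajb9, with 32.3 CPM in dividing and 48.6 CPM in other control cells and 29.2 and 47.3 CPM in ENZ cells. Xbp1 likewise had 62.8 CPM in dividing and 82.6 CPM in other control cells, with 67.5 and 87.7 CPM in the ENZ library. The dividing state was read from the same UMIs as the members, and a cell is more easily called dividing where more UMIs were read. In control cells with over 20000 UMIs Asns had 48.4 CPM against 18.4 CPM in those with 5000 to 20000.

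After thinning each cancer cell to 5000 UMIs, 3952 control and 4402 ENZ cells remained. The variance of UMIs over cells was 2.89 times the mean for Hspa5 in the control and 2.62 times with ENZ, and 1.57 and 1.45 times for Chac1. The mean level differed widely between members, and the members were not ranked by this quantity. Members were only weakly related over single cells, and the pair with the highest rank correlation in both libraries was Hspa5 and Herpud1 (Spearman 0.19 in 3952 control cells and 0.17 in 4402 ENZ cells, which share library and depth).

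Immune cells as a whole gave the same direction for Ddit3 but not for Sesn2. Of the members, 7 could be compared in the summed immune cells, and 1 was called higher (Hspa5) and 1 lower (Ddit3), where 19.4% of all 8416 genes tested were called higher and 8.99% lower. Ddit3 had 55.1 CPM in control immune cells against 26.9 CPM with ENZ, giving 0.488 (0.429 to 0.555). Hspa5 had 929 and 1216 CPM, a ratio of 1.31 (1.28 to 1.34) that only just reached the limit. Sesn2 had 25.4 CPM in both libraries. Without neutrophils, an alternative added after seeing the data, the log2 ratio was -0.66 for Ddit3 and 0.59 for Sesn2, both past the limit. For Sesn2 the log2 ratio ranged from -0.41 to 0.59 over 14 alternatives, and it was called lower from the mean CPM of each cell. The median log2 ratio over all genes tested was 0.11 in immune cells, and the log2 ratio of Hspa5, 0.39 as given, was 0.28 and under the limit after median-of-ratios scaling. Without monocytes, an alternative added after seeing the data, the log2 ratio of Hspa5 fell to 0.05, and with the immune classes of the ENZ library weighted to the control mix it was 0.29. The call was also lost at matched depth and with every Ptprc barcode, and held in 9 of 14 alternatives. In bulk sums of this kind, more cells of a class and more RNA per cell cannot be told apart, which is why each class is given next.

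**Figure D3:**
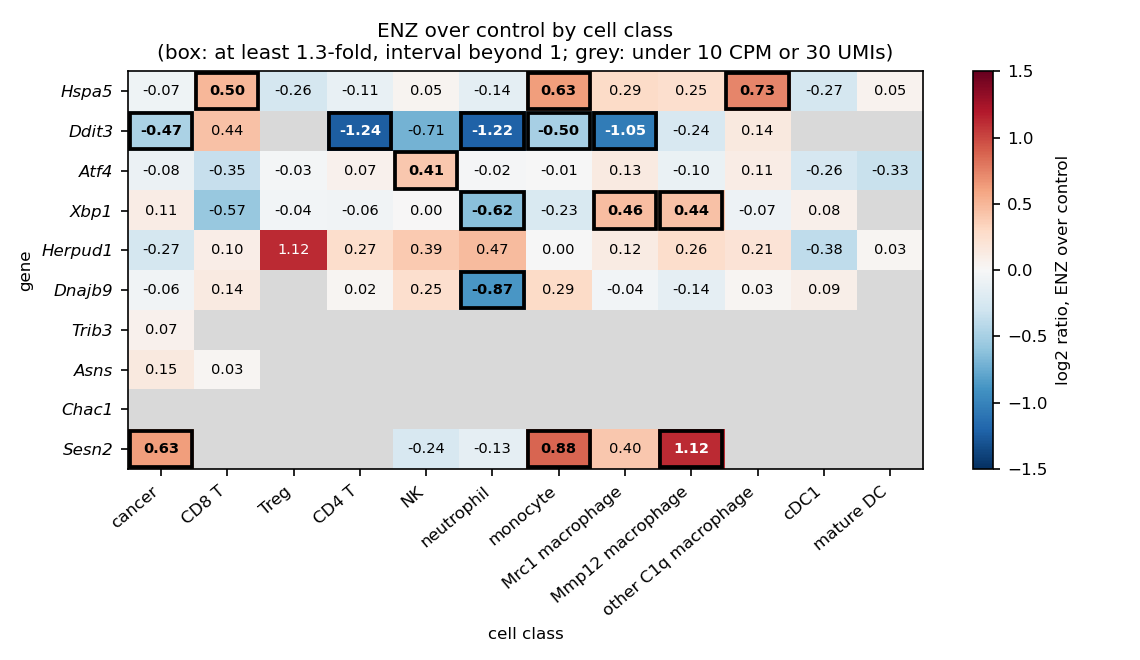
Log2 ratio of ENZ to control for each gene (rows) in each cell class (columns), colored from blue (lower in ENZ) to red (higher), with boxed cells at least 1.3-fold from 1 with an interval beyond 1, and grey cells under the limits of 10 CPM or 30 UMIs. Ddit3 was boxed blue in 5 of 9 classes and red in none, and Hspa5 was boxed red in 3 of 12 classes.

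Ddit3 was lower in ENZ cells of several types. In neutrophils, the class in which it was most abundant, Ddit3 had 189 CPM (359 UMIs) for control and 81.5 CPM (57 UMIs) for ENZ, a ratio of 0.431 (0.320 to 0.571). In Mrc1 macrophages it had 47.8 and 23.0 CPM (0.482, 0.350 to 0.655), in CD4 T cells 44.2 and 18.7 CPM (0.424, 0.218 to 0.821) and in monocytes 30.2 and 21.4 CPM (0.709, 0.507 to 0.996). With cancer cells it was called lower in 5 of the 9 classes with enough UMIs and higher in none. The classes differ in how often any gene is called lower, at 7.87% in neutrophils, 9.05% in Mrc1 macrophages, 10.4% in CD4 T cells and 12% in monocytes. The CD4 T value rests on 21 and 20 UMIs, and the interval in monocytes nearly reached 1. Barcodes with 10 to 100 UMIs, which hold mostly free RNA, had Ddit3 at 60.6 CPM in the control and 35.2 CPM with ENZ. Its level in cancer cells was below this in the control (48.7 CPM) and about equal to it with ENZ (35.1 CPM). In Mrc1 macrophages, CD4 T cells and monocytes its levels lay below those of free RNA in each library. With free RNA subtracted Ddit3 was still called lower in each of these classes, but over all alternatives the call held in only 6 of 10 in monocytes and 8 of 10 in CD4 T cells, against 10 of 10 in neutrophils and in Mrc1 macrophages. In CD8 T cells (25.4 and 34.4 CPM) and in C1q macrophages without Mrc1 (49.7 and 54.8 CPM) the ratio was above 1 with an interval that held 1.

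Hspa5 stood out in monocytes and in C1q macrophages without Mrc1 or Mmp12. It had 1162 CPM in control monocytes and 1794 CPM in ENZ monocytes, a ratio of 1.54 (1.47 to 1.62), and 1241 and 2065 CPM in those macrophages, a ratio of 1.66 (1.51 to 1.83). CD8 T cells had 393 and 555 CPM, a ratio of 1.41 (1.22 to 1.64) whose call was lost in 1 of 10 alternatives. These 3 of 12 classes were called higher, where 16%, 8.75% and 9.64% of all genes were called higher in monocytes, in those macrophages and in CD8 T cells. The interval also lay above 1 in Mrc1 macrophages (1.22, from 1031 to 1263 CPM) and Mmp12 macrophages (1.19). In Mmp12 macrophages the log2 ratio ranged from -0.10 to 0.32 and kept its sign in 9 of 10 alternatives. In neutrophils (826 and 749 CPM) and cDC1 (937 and 779 CPM) the ratio was below 1. The order of the classes therefore differed between the libraries. In the control, the intervals of neighboring classes from C1q macrophages through monocytes and cancer cells to Mmp12 macrophages overlapped. In the ENZ library, C1q macrophages and monocytes stood clear of all others, and cancer cells (1089 CPM) came after all 4 of the monocyte and macrophage classes.

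Markers of the monocyte gate also differed between the libraries, with Lyz2 at 7475 CPM for control and 4329 CPM for ENZ and Chil3 at 1552 and 3628 CPM, and the macrophage markers, all 7 detected and led by Csf1r, summed to 481 and 733 CPM in it. In all other classes together Lyz2 had 444 and 134 CPM and Chil3 7.91 and 22.7 CPM. Immediate early and heat shock genes summed to 22815 and 19817 CPM, led by Hspa1a, and the rRNA-like genes to 43926 and 98915 CPM. C1q macrophages without Mrc1 or Mmp12 differed too, with C1qa at 1305 and 871 CPM and Csf1r at 245 and 292 CPM. Their rRNA-like genes summed to 42274 and 89914 CPM, and 90.8% and 82.5% of these cells had an Hspa5 UMI. The part of these differences in the level of Hspa5 was not tested.

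Xbp1 and Dnajb9, linked as factor and target in the IRE1 branch, were both lower in ENZ neutrophils. Xbp1 had 209 CPM for control and 136 CPM for ENZ (0.649, 0.513 to 0.814), and Dnajb9 155 and 84.4 CPM (0.546, 0.406 to 0.725). Together with Ddit3, 3 of the 7 members compared were called lower in neutrophils and none higher, where 7.87% of all genes were called lower and 9.3% higher. In macrophages Xbp1 went the other way, from 106 to 146 CPM in Mrc1 macrophages (1.38, 1.19 to 1.60) and from 104 to 142 CPM in Mmp12 macrophages (1.36, 1.08 to 1.70), in classes where 17.3% and 18.1% of all genes were called higher. Both calls were lost with median-of-ratios scaling. Dnajb9 was not called there (74.7 and 72.8 CPM in Mrc1 macrophages). Neutrophils had few UMIs per cell (medians of 2048 and 2112), and hemoglobin transcripts summed to 47.5 CPM in control and 0 in ENZ neutrophils. Immediate early and heat shock genes summed to 10800 and 9413 CPM in neutrophils, with 4 of 12 called lower. The rRNA-like genes summed to 56662 and 83999 CPM. The part of these differences in the values of the members was not tested.

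Counted by class, few members were called, and the shares of all genes called give the scale. Of the 7 members compared in CD8 T cells 1 was higher and 0 lower (9.64% and 8.38% of all genes), and of the 7 in NK cells 1 and 0 (8.96% and 5.84%). Of the 6 in CD4 T cells 0 were higher and 1 lower (11.1% and 10.4%), and of the 4 in Tregs none was called (13.5% and 12.8%). In macrophages the counts were 1 higher and 1 lower of 7 with Mrc1 (17.3% and 9.05%), 2 and 0 of 7 with Mmp12 (18.1% and 8.86%), and 1 and 0 of 6 in the other C1q cells (8.75% and 7.33%). Of the 7 in monocytes 2, Hspa5 and Sesn2, were higher and 1, Ddit3, lower (16% and 12%). In cDC1 (8.54% and 7.12%) and mature dendritic cells (14.3% and 11.8%) none of the 5 and 3 members compared was called. At a limit of 1.5 times Sesn2 alone was called in cancer cells (0.513% of all genes higher and 1% lower) and Ddit3 alone in all immune cells (6.63% and 4.18%).

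Of the remaining members, Sesn2 was called in 3 classes, cancer cells among them, Atf4 in 1 and Herpud1 in none. Sesn2 was higher in ENZ monocytes, from 14.9 to 27.3 CPM (1.84, 1.22 to 2.83), and in Mmp12 macrophages, from 10.4 to 22.5 CPM (2.17, 1.13 to 4.03, on 32 and 17 UMIs). In neutrophils, where it was most abundant, it had 113 and 103 CPM and was not called. Atf4 was called in NK cells only, from 178 to 237 CPM (1.33, 1.10 to 1.60), where 8.96% of all genes were called higher. That call was lost in 3 of 10 alternatives, from the mean CPM of each cell (the lowest log2 ratio, 0.13), with median-of-ratios scaling and at matched depth, and in CD8 T cells (log2 ratio -0.35) Atf4 was called lower in 3 of 10. Its level lay between 112 and 249 CPM over all 12 classes in the control. Free RNA held Atf4 at 249 CPM in the control and 303 CPM with ENZ, a difference in the same direction as in NK cells. The NK levels lay below those of free RNA in both libraries. With ENZ, all 12 classes lay below the level of free RNA. Herpud1 was compared in all 12 classes and called in none, with a ratio above 1 in 9 of them and below 1 in cancer cells, monocytes (0.999) and cDC1. Among alternatives it was called lower in cDC1 in 3 of 9 and higher in neutrophils in 1 of 10, and Xbp1 was called lower in CD8 T cells in 4 of 10.

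**Figure D4:**
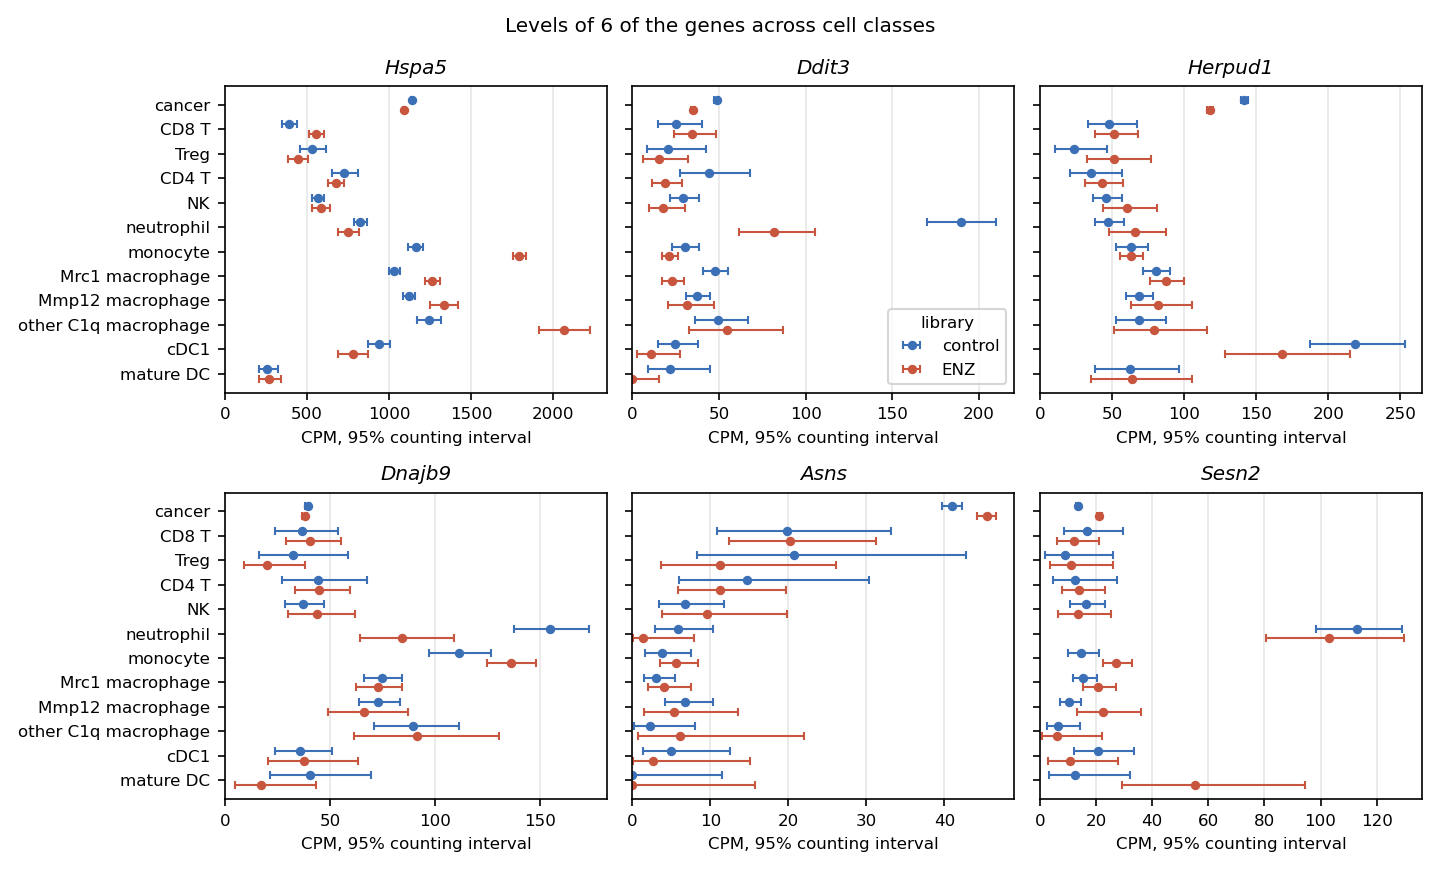
CPM of 6 genes in 12 cell classes of the control (blue) and ENZ (red) libraries, with 95% counting intervals and a separate linear axis for each gene. Ddit3, Dnajb9 and Sesn2 were highest in control neutrophils, Herpud1 in cDC1, and Asns in cancer cells, and Hspa5 of the ENZ library lay to the right of the control in monocytes and macrophages.

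Across classes, Trib3 and Asns were highest in cancer cells in both libraries, whereas Chac1 and Sesn2 were highest in neutrophils. The interval of cancer cells overlapped that of the next class for Trib3 in both libraries and for Asns in the control. Trib3 had 17.0 CPM in control cancer cells against 2.22 CPM in control immune cells, 7.63 times as much (5.49 to 10.9), and 6.22 times as much in the ENZ library. Asns was 6.70 and 6.47 times as high in cancer as in immune cells, and Chac1 3.36 and 3.48 times. Among immune classes Asns was highest in T cells, with 19.8 and 20.2 CPM in CD8 T cells, and 3.06 and 4.11 CPM in Mrc1 macrophages. Barcodes with 10 to 100 UMIs, which hold mostly free RNA, had Trib3 at 11.7 and 5.60 CPM and Asns at 15.9 and 32.0 CPM. All 7 cancer markers, of which the 4 genes other than Krt8, Krt18 and Epcam were gated low in immune cells, summed to between 51.5 and 135 CPM in the immune classes of the control and between 59.5 and 174 CPM in those of the ENZ library, led by Rhox5 in most, against 2498 and 2516 CPM in cancer cells.

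Neutrophils and cDC1 had their own profiles. In the control, neutrophils were the highest class for 6 members (Ddit3, Atf4, Xbp1, Dnajb9, Chac1 and Sesn2), and their interval overlapped that of the next class only for Chac1. Sesn2 stood furthest apart, at 113 CPM against 20.9 CPM in cDC1, the next class. In the ENZ library neutrophils remained highest for Ddit3, Atf4, Chac1 and Sesn2, but their intervals overlapped those of the next class for all 4. The Atf4 level of neutrophils was about equal to that of free RNA in the control (both 249 CPM). It was below free RNA with ENZ (246 against 303 CPM). For Herpud1 cDC1 led in both libraries, with 218 and 168 CPM, ahead of cancer cells (142 and 118 CPM) without overlap. Mature dendritic cells were lowest for Hspa5 (259 and 268 CPM), and in the control mature dendritic cells or Tregs were lowest for all other members but Sesn2. For those other members the interval of the lowest class overlapped that of the class above it. For Trib3, Asns and Chac1 the place of mature dendritic cells rests on 0 UMIs, with an upper bound of 11.5 CPM.

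Genes with a profile like those of Hspa5, Atf4 and Ddit3 over the 12 classes and both libraries were named by the Pearson correlation of log2(CPM + 10) over 24 profiles among 6534 genes with at least 50 CPM in any profile. Closest to Hspa5 were Errfi1 (0.89), P4hb (0.88), which encodes a protein disulfide isomerase of the ER, Plod3 (0.87), Tmed10 (0.86) and Hbegf (0.83). Closest to Atf4 were the glucose transporter gene Slc2a1 (0.88), Sntb2 (0.83), Spp1 (0.83), Mafk (0.82) and Cebpz (0.79). For Ddit3 they were Egr1 (0.85), an immediate early gene, Slc2a1 (0.84), Por (0.84) and Pip5k1b (0.82). The 12 classes of a library share its preparation and free RNA, and these values describe the profiles only.

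Few other genes of the same pathways were called in cancer cells. Among 83 genes tested of 91 in 7 lists, 0 were called higher and 4 lower, with a median log2 ratio of 0.10, where 2.91% of all genes were called higher and 3.13% lower. All 4 were among the 12 tested ATF4 partners and other targets, whose median was -0.17. They were the growth factor gene Gdf15 (170 and 108 CPM, ratio 0.633), the mTORC1 inhibitor Ddit4 (130 and 96.5 CPM, 0.742) and the transcription factors Atf3 (149 and 111 CPM, 0.746) and Cebpb (589 and 449 CPM, 0.762). In the lowest tertile of the immediate early and heat shock share none of the 4 was called lower, and Cebpb was called higher.

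No gene was called among 17 ER chaperone and folding genes (median log2 ratio 0.03), 13 genes of ER-associated degradation and translocation (0.06), 14 sensors and regulators of eIF2 (0.17), 8 of amino acid synthesis (0.08) or 7 of amino acid transport (0.01). In the amino acid synthesis list, Phgdh, the entry enzyme of serine synthesis, had 248 and 220 CPM (0.884), and Psat1 67.6 and 72.6 CPM (1.07). The 12 tRNA synthetase genes, which charge tRNA with amino acids and are targets of ATF4 in part, all had ratios above 1, from 1.06 for Sars to 1.19 for Eprs, with a median log2 ratio of 0.18, and none was called. These lists were close to the median of all genes (0.04) or slightly above it, whereas the immediate early and heat shock list had a median of -0.58.

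**Figure D5:**
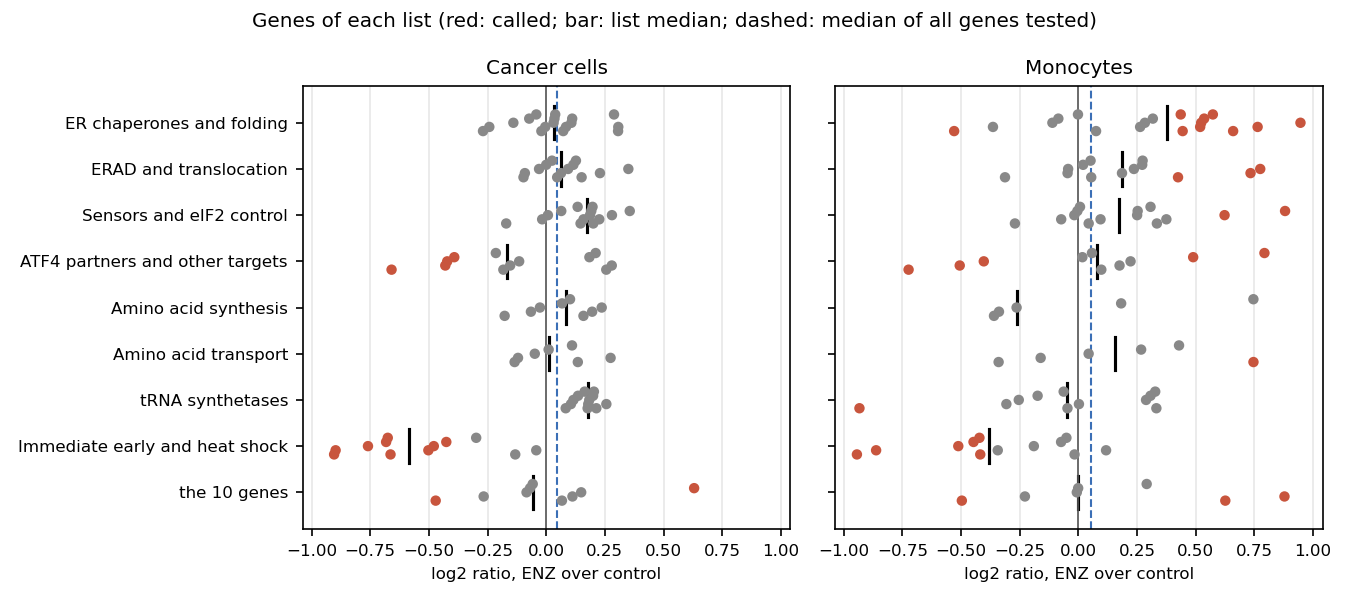
Log2 ratio of ENZ to control for each tested gene of the lists in cancer cells (left) and monocytes (right), with called genes in red, list medians as black bars and the median of all genes tested as a dashed line (0.04 and 0.05). In cancer cells the red points of the stress lists were all ATF4 partners on the lower side, whereas in monocytes 9 ER chaperone genes were red on the higher side.

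In monocytes, where Hspa5 was higher, 9 of 18 ER chaperone and folding genes tested were also called higher, 1 was called lower and 8 were not called, with a median log2 ratio of 0.38 against 0.05 for all genes, where 16% were called higher and 12% lower. The higher genes included the glucose-regulated chaperone Hsp90b1 (413 and 562 CPM, 1.36), the disulfide isomerases Pdia3 (268 and 386 CPM, 1.44) and Pdia4 (43.6 and 74.0 CPM, 1.70), and Hyou1 (31.1 and 60.0 CPM, 1.93). The ratio was below 1 for 5 of the 18, of which Ppib, an ER cyclophilin, was called lower, with 394 and 273 CPM (0.693). Over all 7 lists, 17 of 77 genes tested in monocytes were called higher and 5 lower. The counts higher and lower were 3 and 0 of 13 genes of degradation and translocation and 2 and 0 of 14 sensors. They were 2 and 3 of 10 ATF4 partners, 0 and 0 of 5 genes of amino acid synthesis and 1 and 0 of 6 of transport. Of 11 tRNA synthetases 0 were higher and 1 lower. Xbp1 (0.854, 0.745 to 0.981) and Dnajb9 (1.22, 1.05 to 1.43) were not called. Lyz2, Chil3 and the macrophage markers also differed in this gate, and their part in these counts was not tested. In Mrc1 macrophages 6 of 18 were called higher and 2 lower (17.3% and 9.05% of all genes), and in neutrophils 2 of 14 higher and 1 lower (9.3% and 7.87%). In all immune cells, 16 of 80 tested genes of the 7 lists were called higher and 3 lower, beside 19.4% and 8.99% of all genes. These counts depended on the scaling, with 7 higher and 8 lower under median-of-ratios scaling and 26 and 5 from the mean CPM of each cell. Under these alternatives the shares of all genes called were not computed.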

How the data were processed

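Libraries were made by a droplet-based 3′ protocol, and the values deposited by the authors are raw UMI counts, with every barcode listed. The file header names Cell Ranger 7.2.0, whereas the submitters' processing notes name Cell Ranger 2.1.1 and mm10. Whether intronic reads were counted is not given in the sources used here. Positions are from GENCODE M21 (GRCm38), and promoters from RefSeq (GRCm38.p6).

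From the deposited counts, UMIs were summed per class and library as CPM with exact Poisson intervals, and ratios were given exact conditional binomial intervals, at 95%, which cover counting error only. Each immune class required its own markers and at most 2 UMIs of the 4 cancer gate genes. Barcodes passing several gates were dropped as possible doublets, and scrublet (scanpy 1.11.5) served as an alternative. B, plasma, cDC2, plasmacytoid dendritic cells and fibroblasts had under 20 cells in a library. The text names all members, the called genes of each list up to 4 in each direction, and the 5 genes most like Hspa5, Atf4 and Ddit3, of which 1 is not reported here. Other list genes given as examples, and all from monocytes, were chosen after their values were seen. The members and lists were chosen with earlier results of these data known. No values of the authors' own comparisons were used. The interval and call steps were tested on simulated data. The versions were pandas 2.3.3, scipy 1.17.1, numpy 2.4.6 and matplotlib 3.10.9 under Python 3.11.15.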

Additional observations from a re-analysis of the deposited data

Results flagged for a closer look

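Xbp1 differed in direction between cell classes. The ratio of ENZ to control was 1.38 in Mrc1 macrophages and 1.36 in Mmp12 macrophages, but 0.649 in neutrophils, each with an interval beyond 1. With median-of-ratios scaling the log2 ratios in the macrophage classes fell to 0.35 and 0.28, under the 1.3-fold limit. The difference between these classes was not tested, because each class was measured in 1 library per condition.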

How the results depend on the processing

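No paired analysis was possible because there is only 1 mouse for control and 1 for ENZ. The alternatives within tertiles of the immediate early and heat shock share, with every Ptprc barcode, with the control mix of immune classes, and without monocytes or neutrophils were chosen after seeing the data. Of 860 log2 ratios of members recomputed, 796 stayed within the counting interval of the reported value, 64 moved outside it and 0 of the called ones changed sign. In cancer cells the log2 ratio ranged from -0.52 to -0.28 for Ddit3 and from 0.52 to 0.73 for Sesn2. The members called lower in cancer cells were 0 at a limit of 1.5 times, with a filter of 50 CPM, and in the middle and highest tertiles, and the members called higher were 0 with 50 CPM, which leaves out Ddit3 and Sesn2 by construction. Among pathway genes in cancer cells, 1 was called higher with the mean CPM of each cell, and 2, 3 and 3 in the lowest, middle and highest tertiles, while the number lower was 1 at 1.5 times and 0 in the lowest tertile. In immune cells the members called higher were 0 with median-of-ratios scaling, with matched depth, at 1.5 times, with every Ptprc barcode, with the control mix and without monocytes, and 2 without neutrophils (Hspa5 and Sesn2), and the members lower were 2 (Ddit3 and Sesn2) with the mean CPM of each cell. Pathway genes called in immune cells were 26 higher and 5 lower with the mean CPM of each cell, 7 and 8 with median-of-ratios scaling, which thus turned the split from mostly higher to nearly even, 3 and 1 at 1.5 times, 2 higher at 50 CPM, 10 higher with every Ptprc barcode and 5 lower without monocytes. The cause of these shifts was not tested. Trib3, Asns and Chac1 were under 10 CPM in the summed immune cells of both libraries and were not compared there.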

Other observations

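Barcodes that passed no gate, 5425 of control and 3621 of ENZ, belonged to none of the cell classes compared above. In their summed UMIs Ddit3 had 49.2 CPM for control and 31.3 CPM for ENZ, a ratio of 0.636 (0.579 to 0.697), Hspa5 969 and 1103 CPM (1.14), and Sesn2 19.9 and 23.6 CPM (1.18). Among barcodes with 10 to 100 UMIs, which hold mostly free RNA, Ddit3 had 60.6 and 35.2 CPM and Hspa5 927 and 982 CPM.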
